A study of Mus musculus with 6 samples.

Results

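The MOB kinase activators, the LATS kinases and Yap1 were described in TM3 cells, a mouse Leydig cell line. Leydig cells lie outside the seminiferous tubules of the testis and make testosterone. The set held 10 genes of the 23462 gene symbols named on the array: Mob1a, Mob1b, Mob2, Mob3a, Mob3b, Mob3c, Mob4, Lats1, Lats2 and Yap1. The genes were chosen by family and pathway, around Mob3b, which was picked because its signal was among those higher after treatment. The treatment contrast therefore took part in choosing the set, and the differences of its genes are given as descriptions, without a test. The 10 genes had 13 of the 56605 probes on the array.

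The study set 3 TM3 samples given 10 µM PNP for 24 h against 3 control samples at 0 µM. PNP is 4-nitrophenol, a breakdown product of parathion that also occurs in diesel exhaust. Total RNA of each sample went on its own 1-colour Agilent array, and all 6 arrays lay on 1 slide and were read in 1 scan. All samples came from this 1 male line, with no other genotype, dose or time. Whether samples of 1 group were separate cultures is not stated in the sources, so standard errors and p-values measure a spread that may be technical. In bulk RNA such as this, fewer cells of a type and less RNA per cell cannot be told apart.

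MOB proteins are small adaptors that bind and activate kinases of the NDR family. In the Hippo pathway the MST kinases phosphorylate MOB1A, MOB1B and the LATS kinases, MOB1 bound to LATS switches LATS on, and LATS then phosphorylates YAP and its relative TAZ. Phosphorylated YAP is kept out of the nucleus, where it would otherwise act with the TEAD factors to turn on genes of growth and cell shape. MOB2 binds the NDR kinases STK38 and STK38L, MOB4 belongs to the STRIPAK phosphatase complex, and in human cells the MOB3 proteins do not activate LATS or NDR kinases.

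Mob3b, the gene around which the set was picked for its higher signal, had 1.67-fold higher signal in PNP cells than in control cells, without overlap between the groups. With limma, 0 of the 13138 genes fitted passed the adjusted test, Mob3b, the upstream kinases, the TEAD factors, the YAP target genes and the STRIPAK genes included. The other 8 members that could be fitted had overlapping groups, and over all genes 13.4% did not overlap. Mob1b, Mob1a and Mob3c had the lowest differences, from -0.36 to -0.33 on the log2 scale, while Mob2, Mob3a, Lats1 and Yap1 lay within 0.04 of 0.

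Signals are given as scaled log2 signals, the log2 of the processed spot signal minus the 75th percentile of its array. Brightness differs between probes for reasons other than RNA amount, so each probe is compared with itself only. On PNP arrays that percentile was 4503, 5286 and 5034, against 5362, 5552 and 5798 on control arrays, lower without overlap. Median signals did overlap, at 316, 394 and 371 on PNP arrays and 391, 383 and 392 on control arrays. Spots well above background made up 61.6% ± 1.47 of all spots on PNP arrays and 62.1% ± 0.240 on control arrays (SD, n = 3 each). Spots marked as outliers, which were left out, numbered 6844 to 7809 on PNP arrays and 3872 to 5377 on control arrays, of 59305 spots each. The part of brightness and outlier spots in the results was not tested. Of 10 Leydig cell markers, Star, Nr5a1, Cyp17a1 and Inha were measured well enough to fit, while Cyp11a1, Hsd3b6, Hsd17b3 and Lhcgr, steroid enzymes and the luteinising hormone receptor, were above background on 0 arrays. Of 10 markers listed for each other cell type, 6 of Sertoli cells, 8 of macrophages and leukocytes, 4 of germ cells and 9 of peritubular myoid cells could be fitted. Of these, 0 passed the test described next, which compares PNP with control and does not show whether a cell type was present. For PNP against control, 0 of 13138 genes (0%) passed a limma adjusted p of 0.05, and 856 genes (6.52%) had an unadjusted p below it, 660 with higher signal in PNP cells (5.02%) and 196 with lower (1.49%).

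The promoter windows of the genes that carried a TEAD motif, and that of Mob3b, are shown because YAP acts through TEAD factors and Mob3b was the gene that stood apart. RefSeq windows of build GRCm38.p6 run from 250 bases before to 50 bases after a start site, which need not be the outer end of the gene. Of each, 280 bases are printed, 5′ to 3′ on the gene's strand. The TEAD motif GGAATG, searched on both strands, is in capitals, and its match is a description and no binding site.
Mob3b, chr4:35157455-35157734, minus strand: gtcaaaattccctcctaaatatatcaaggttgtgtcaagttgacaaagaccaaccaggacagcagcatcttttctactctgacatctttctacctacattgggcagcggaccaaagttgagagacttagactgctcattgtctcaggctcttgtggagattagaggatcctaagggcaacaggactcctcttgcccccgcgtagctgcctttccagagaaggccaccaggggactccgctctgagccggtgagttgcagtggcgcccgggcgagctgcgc
Mob1a, chr6:83325789-83326068, plus strand: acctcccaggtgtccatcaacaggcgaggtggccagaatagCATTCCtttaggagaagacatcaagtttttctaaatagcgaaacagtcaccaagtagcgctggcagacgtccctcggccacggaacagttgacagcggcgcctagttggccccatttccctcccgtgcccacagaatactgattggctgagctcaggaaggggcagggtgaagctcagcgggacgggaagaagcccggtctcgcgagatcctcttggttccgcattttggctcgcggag
Lats2, chr14:57746094-57746373, minus strand: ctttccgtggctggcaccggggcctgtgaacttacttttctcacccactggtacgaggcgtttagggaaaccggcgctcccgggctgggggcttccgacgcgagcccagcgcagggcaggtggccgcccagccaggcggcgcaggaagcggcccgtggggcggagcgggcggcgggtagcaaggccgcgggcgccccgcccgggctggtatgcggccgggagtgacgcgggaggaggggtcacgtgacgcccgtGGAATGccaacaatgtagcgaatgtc
Yap1, chr9:8004567-8004846, minus strand: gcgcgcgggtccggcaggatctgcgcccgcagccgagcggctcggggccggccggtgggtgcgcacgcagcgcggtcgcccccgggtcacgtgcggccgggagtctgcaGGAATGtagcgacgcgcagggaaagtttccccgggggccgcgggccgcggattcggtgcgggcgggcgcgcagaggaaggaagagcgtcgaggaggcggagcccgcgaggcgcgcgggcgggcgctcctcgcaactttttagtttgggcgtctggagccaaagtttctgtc
The match began at -209 relative to the start site in Mob1a, at -141 in Yap1 and at 4 in Lats2.

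All 10 genes matched the RefSeq table, with 14 windows between them. Of these 14 windows, 3 (21.4%) held the TEAD motif, against 14.7% of all 32851 windows of the same length. The AP-1 motif TGANTCA and the TATA box TATAAA, both searched on both strands, were in 0 of the 14 windows, against 7.81% and 13.6% of all windows. Of the 20 YAP target genes, 13 matched, with 14 windows, and Ccn2, Asap1, Fjx1, Ccdc80, Dock5, Arhgef17 and Nuak2 did not. Those 14 windows held the TEAD motif in 5 cases (35.7%), among them those of Ccn1 and Ankrd1, the AP-1 motif in 1 (7.14%) and the TATA box in 4 (28.6%). The windows of the set were rich in G and C, with a median GC content of 66.3% (42.7 to 79.0%) against 52.7% over all windows. The Mob3b window had 54.7% GC and 12 CpG pairs, against a median of 28.5 CpG pairs over the 14 windows and 7 over all windows.

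**Figure D1:**
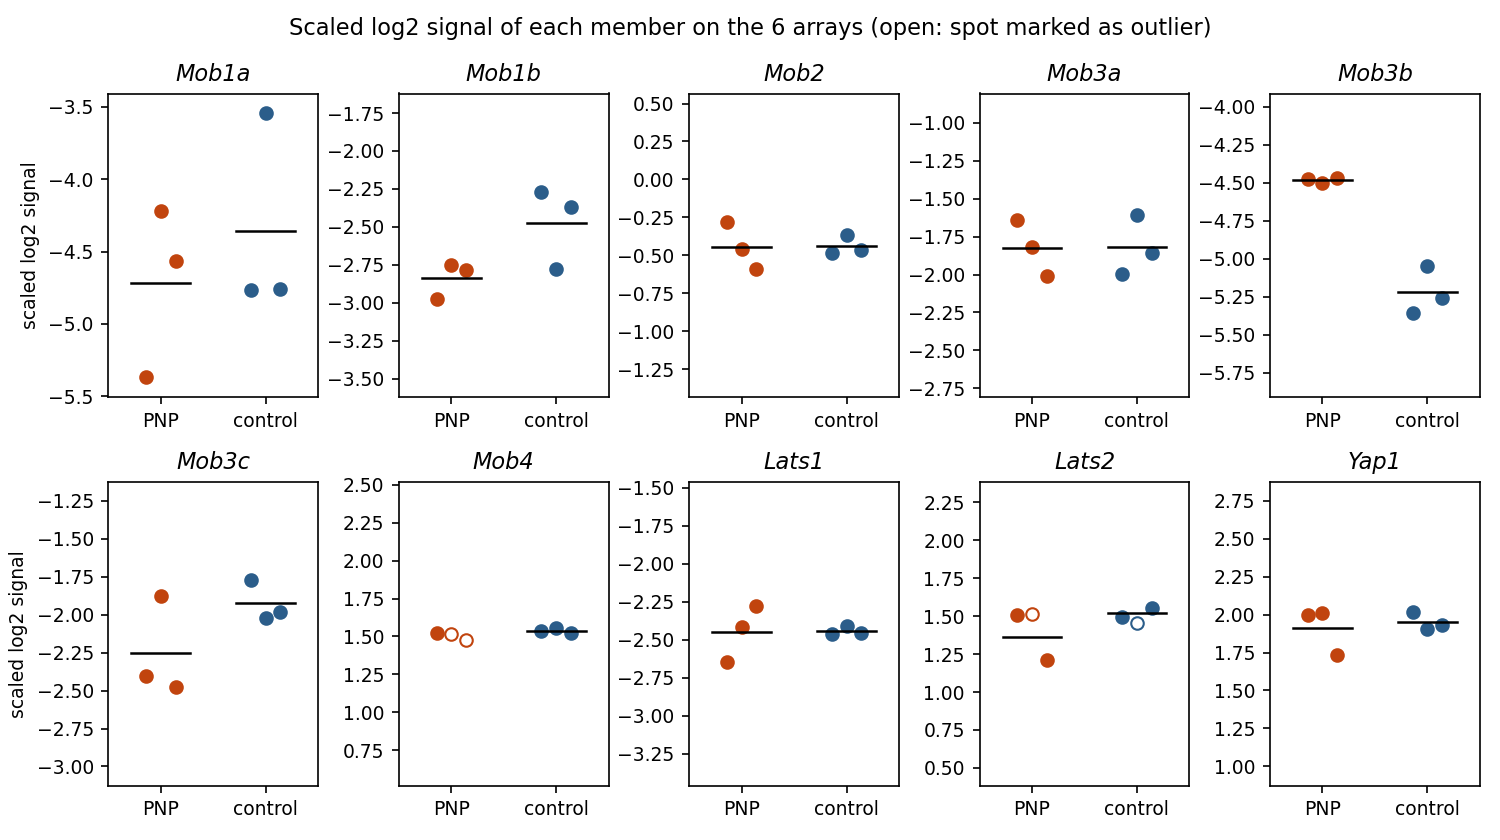
Scaled log2 signal (vertical axes, each spanning about 2 log2 units) of each gene on the 3 PNP arrays (left) and the 3 control arrays (right), with group means as lines and outlier spots as open circles. Mob3b is the gene whose PNP points, from -4.50 to -4.47, all lie above its control points, from -5.36 to -5.05.

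The MOB1 pair came first in the pathway's order. Mob1b, a coactivator of the LATS and NDR kinases, had scaled log2 signals of -2.97, -2.75 and -2.79 on PNP arrays, against -2.27, -2.78 and -2.37 on control arrays. The second control array lay among the PNP values, and the other control arrays lay above them. The means were -2.84 ± 0.12 in PNP cells and -2.47 ± 0.27 in control cells (SD, n = 3 each), a difference of -0.36 (SE 0.15, 95% interval from -0.70 to -0.03).

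Mob1a, the other MOB1 gene, had signals of -5.37, -4.22 and -4.56 on PNP arrays, against -4.77, -3.54 and -4.76 on control arrays. The first PNP array was not well above background, and the second control array was far above the rest. The difference of -0.36 (SE 0.38) had a 95% interval from -1.24 to 0.51, the widest of the members fitted. Without the second control array it was 0.04, and without the first PNP array it was -0.04, so the value for Mob1a rested on these 2 arrays.

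The LATS kinases, the direct partners of MOB1, were read by 5 probes. Lats1 had signals of -2.64, -2.42 and -2.28 on PNP arrays, against -2.46, -2.41 and -2.46 on control arrays. The control arrays lay within the spread of the PNP arrays, and the difference was -0.0037 (SE 0.11, 95% interval from -0.26 to 0.26). A brighter Lats1 probe was marked as an outlier on all 3 PNP arrays and on the first control array and could not be fitted. With those spots kept it gave 0.80, 0.29 and 0.70 on PNP arrays and 0.48, 0.82 and 0.77 on control arrays, again overlapping, with a difference of -0.09.

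Lats2 had 3 fitted probes. The brightest gave 1.51, 1.52 and 1.21 on PNP arrays and 1.49, 1.46 and 1.55 on control arrays, and the second array of each group was left out as an outlier. Its difference was -0.16 (SE 0.15, 95% interval from -0.52 to 0.19). Without the third PNP array, the lowest of the 6, it was -0.02, a value that rests on 1 PNP array. A second probe of the same transcript record gave -0.74, -0.56 and -0.93 on PNP arrays, against -0.61, -0.69 and -0.45 on control arrays, also -0.16 (SE 0.13). The probe of another transcript record gave -1.20, -1.74 and -1.41 on PNP arrays and -1.61, -1.56 and -1.41 on control arrays, with a difference of 0.07 (SE 0.15). The groups overlapped for each Lats2 probe, and the probes did not share 1 direction.

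Yap1, the coactivator that LATS restrains, had signals of 1.99, 2.01 and 1.73 on PNP arrays, against 2.02, 1.90 and 1.93 on control arrays. The third PNP array was the lowest of the 6 and the others overlapped. The difference was -0.04 (SE 0.11), with a 95% interval from -0.29 to 0.21.

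Mob2, which binds the NDR kinases, had signals of -0.28, -0.46 and -0.59 on PNP arrays, against -0.48, -0.37 and -0.47 on control arrays. The control values lay inside the PNP range, and the difference was -0.0049 (SE 0.11, 95% interval from -0.25 to 0.24). Mob4, the STRIPAK member, had signals of 1.52, 1.51 and 1.48 on PNP arrays and 1.54, 1.56 and 1.52 on control arrays. The PNP spots of the second and the third array were marked as outliers, which left 1 PNP value and no fit. With those spots kept the Mob4 difference was -0.03 (SE 0.09).

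Of the MOB3 genes, Mob3b had scaled log2 signals of -4.47, -4.50 and -4.47 on PNP arrays, against -5.36, -5.05 and -5.26 on control arrays. Each PNP array lay above each control array, and the PNP values were closer together than those of the controls. The means were -4.48 ± 0.02 in PNP cells and -5.22 ± 0.16 in control cells (SD, n = 3 each), a difference of 0.74 (SE 0.11, 95% interval from 0.50 to 0.99).

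Mob3b was a dim gene on these arrays. Its processed signal was 203, 234 and 228 on PNP arrays, against 131, 168 and 152 on control arrays. The lowest signal of any spot well above background was from 112 to 118 on PNP arrays and from 119 to 122 on control arrays, so the control values of Mob3b stood little above that limit. The probe was well above background on all 6 arrays. By size of difference Mob3b was number 14 of 13138 genes counted from the highest. It was picked for being among the higher genes, so this rank is no further result.

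Mob3a had signals of -1.64, -1.82 and -2.01 on PNP arrays, against -1.99, -1.61 and -1.86 on control arrays. These ranges nearly coincided, and the difference was -0.0020 (SE 0.14, 95% interval from -0.32 to 0.32). Mob3c had signals of -2.40, -1.88 and -2.48 on PNP arrays, against -1.77, -2.02 and -1.98 on control arrays. The second PNP array lay within the control range and the other PNP arrays lay below it. The means were -2.25 ± 0.33 in PNP cells and -1.93 ± 0.13 in control cells (SD, n = 3 each), a difference of -0.33 (SE 0.17, 95% interval from -0.71 to 0.06).

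**Figure D2:**
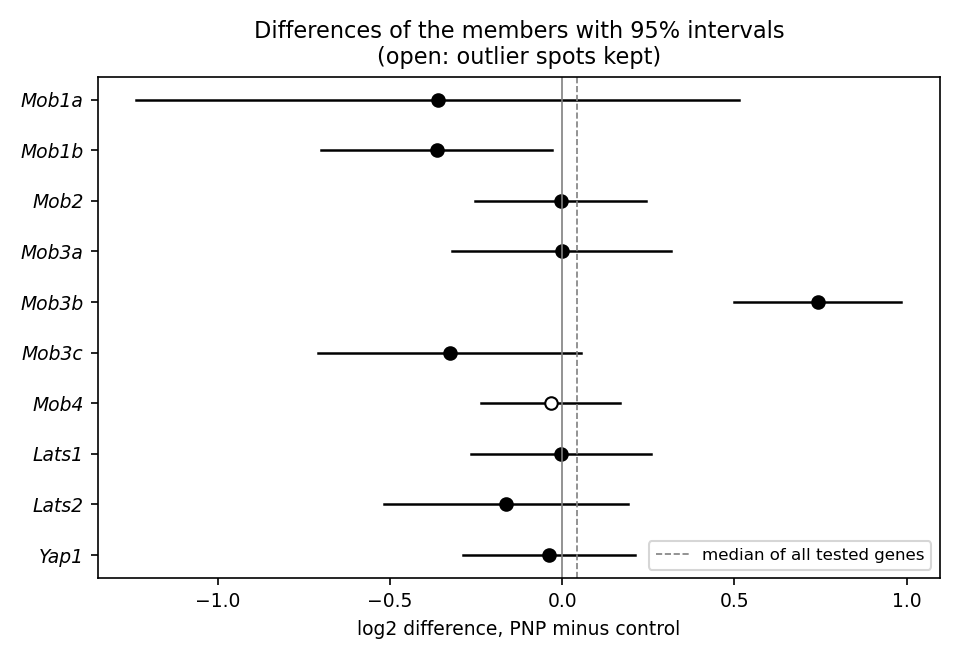
Log2 difference, PNP minus control (horizontal axis), of each gene with its 95% interval from the limma fit, with Mob4 as an open circle because its outlier spots were kept, and the median of all fitted genes as a dashed line. Mob3b, at 0.74, lies to the right of all the others, which lie between -0.36 and 0.

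Across the 9 members fitted, Mob3b was the 1 gene whose groups did not overlap. Over all genes 13.4% did not overlap, 9.66% with PNP higher and 3.75% with PNP lower. The other 8 had a difference below 0, against 37% of all genes. The share of all genes below 0 moved with the scaling of the arrays, to 55.8% when the median of each array was used and to 46.3% after quantile normalization. The median difference was -0.04 for the 9 members and 0.04 over all genes. Of the 8 below 0, Mob2, Mob3a and Lats1 lay between -0.0049 and -0.0020. Without the second control array 4 of the 8 were below 0, and without the third PNP array 5 were. Since the treatment contrast took part in the choice of the set, nothing is read from these counts.

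The arrays lay in 4 columns and 2 rows of the slide, and signals differed by column. Of 12925 genes with values to compare, 2575 (19.9%) had arrays of even columns that did not overlap with those of odd columns. PNP arrays lay in 2 even columns and 1 odd column, and control arrays in 1 even and 2 odd columns, so treatment and column were partly mixed. Mob1b and Mob3c were each lower on all even-column arrays than on all odd-column arrays, as were 8.4% of all genes, with even-minus-odd differences of -0.38 and -0.42. For Mob1b the difference between PNP and control was -0.43 in odd columns and -0.10 in even columns. For Mob3c it was 0.0027 in odd columns and -0.42 in even columns, so its difference was not seen within the odd columns.

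The groups of Mob3b did not overlap, so its direction within any column or row was fixed in advance. Its difference between PNP and control was 0.81 in odd columns and 0.58 in even columns. In the first slide row, which held all 3 control arrays and the first PNP array, it was 0.75. Mob1a differed in direction between columns, at 0.54 in odd columns and -1.42 in even columns. Yap1 was at 0.04 in odd columns and at -0.04 in even columns. Each of the column values compares 1 array with 2, and the row value 1 array with 3, so they carry no test.

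**Figure D3:**
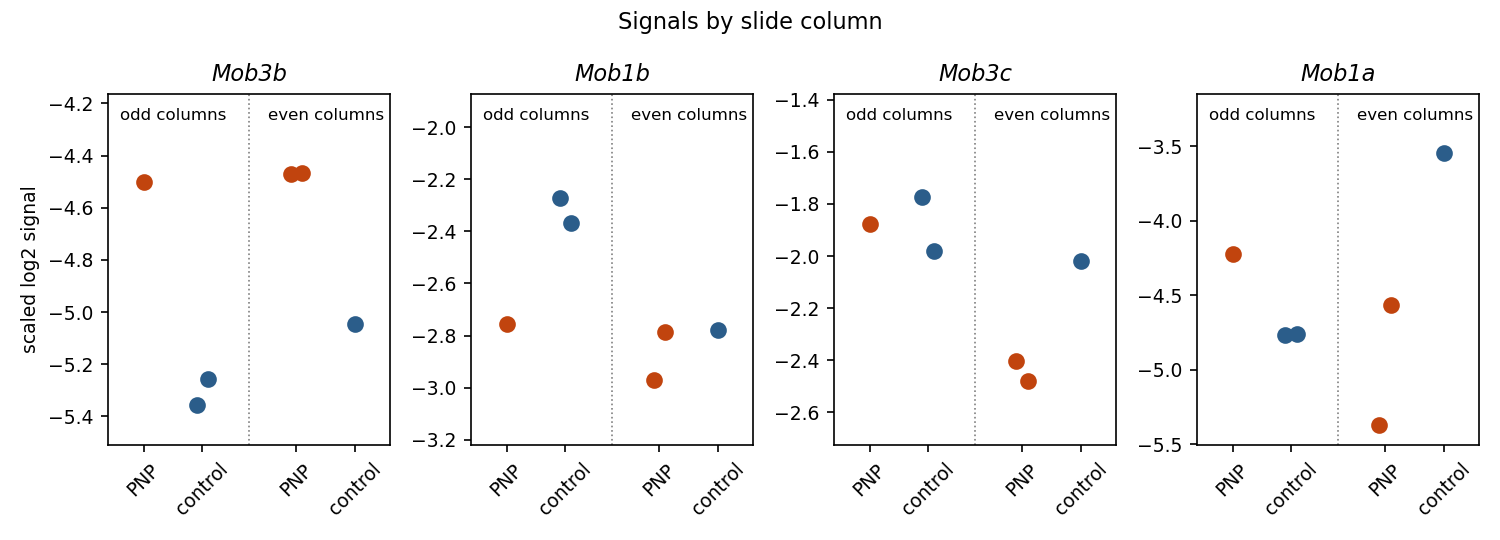
Scaled log2 signal (vertical axes) of 4 genes on the arrays of odd and of even slide columns, with PNP arrays left of control arrays and 1 point per array. Mob3b is higher on PNP arrays in both kinds of column, as a gene whose groups do not overlap must be. The even-column arrays of Mob1b and Mob3c lie below the odd-column arrays in either group.

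The genes most like Mob3b over the 6 arrays were found by the Pearson correlation of scaled log2 signals among 11109 genes with a value on each array. The 5 highest were Tlr13, a receptor for bacterial ribosomal RNA (r = 0.990), Rdh8, a retinol dehydrogenase (0.983), Secisbp2, which takes part in selenocysteine insertion (0.979), Pde2a, a cyclic nucleotide phosphodiesterase (0.977), and Arhgap1, a GTPase-activating protein (0.976). Their differences between PNP and control were 0.42, 0.54, 0.22, 0.38 and 0.24. The arrays share 1 treatment contrast and 1 slide, so these values describe the arrays only. Among the relatives, r with Mob3b was -0.86 for Mob1b, -0.68 for Mob3c, 0.16 for Mob3a, 0.06 for Mob2, 0.02 for Lats1, -0.16 for Mob1a and -0.28 for Yap1.

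The rest of the pathway was read from lists of its genes, each tested with limma and adjusted over all 13138 genes. Of 24 kinases and regulators at and above LATS, 18 could be tested and 0 passed, 12 with differences above 0 and 6 below, with a median of 0.03 against 0.04 over all genes. Stk38, the NDR kinase that MOB1 and MOB2 bind, had signals of -4.09, -4.01 and -3.81 on PNP arrays, against -3.66, -3.32 and -3.39 on control arrays. Its groups did not overlap, and the difference was -0.51 (SE 0.13, limma adjusted p = 0.740). Of the 18 genes, 4 had groups that did not overlap, 2 with PNP higher and 2 with PNP lower, against 13.4% of all genes. A brighter Stk38 probe, marked as an outlier on all 6 arrays and therefore not tested, gave 0.38, 0.89 and 0.96 on PNP arrays and 0.92, 1.07 and 0.69 on control arrays, which overlapped.

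Stk38l, the other NDR kinase, had a difference of 0.03 (SE 0.09), and Stk4, which encodes the MST1 kinase, had 0.03 (SE 0.09). Nf2, the upstream tumour suppressor merlin, had 0.10 (SE 0.12, with 2 PNP values). For Stk4 and Nf2 another probe had the opposite sign. Dchs1, a cadherin ligand at the cell surface, had 0.25 (SE 0.12), and Csnk1d, a casein kinase, had 0.20 (SE 0.11) while its 2 other probes had the opposite sign. Stk3 and Sav1, the MST2 kinase and its scaffold, lost their test to outlier spots, and with those spots kept their differences were 0.02 and -0.08.

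Of 9 genes for TAZ, the TEAD factors and the VGLL cofactors, 6 could be tested and 0 passed. All 6 had differences above 0, also under each scaling tried, with a median of 0.09, against 63% of all genes above 0. Tead1, Tead2, Tead3 and Tead4, the DNA-binding partners of YAP, had 0.12, 0.09, 0.09 and 0.07, Wwtr1, which encodes TAZ, had 0.06, and Vgll2 had 0.17. Each of these was within 2 standard errors of 0. For Tead1 a dimmer probe had -0.13. Without the first PNP array 4 of the 6 were above 0. With outlier spots kept, 2 more genes of the list could be fitted, at -0.19 and -0.09, so 6 of 8 were above 0.

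Of 20 YAP and TEAD target genes, 12 could be tested and 0 passed, 6 above and 6 below 0, with a median of 0.0060. Ccn1, the matrix protein CYR61 and a standard YAP target, had signals of 1.87 and 2.18 on the PNP arrays kept, against 2.25 and 2.18 on the control arrays kept, a difference of -0.19 (SE 0.15). Axl, a receptor tyrosine kinase, had 0.15 (SE 0.12) with another probe at -0.17, and Nuak2, an AMPK-related kinase, had 0.14 (SE 0.10). Fjx1, a Golgi kinase gene, was well above background on 0 PNP arrays, at -6.34, -5.67 and -5.38, against -5.13, -4.89 and -4.91 on control arrays. With PNP values raised to at least the lowest signal well above background, its mean was 1.34-fold lower in PNP cells. The limma adjusted p of its unraised values was 0.740. With another background correction, normexp, the difference was -0.21 (SE 0.14), so the fold depends on how background was treated. Another 7 targets lost their test to outlier spots. With those spots kept, all 7 lay above 0, from 0.04 to 0.13, with Ccn2 at 0.05 and Ankrd1 at 0.13. In that fit 39.6% of all genes lay below 0, and the median of all genes was 0.03. The Ankrd1 spot was marked as an outlier on 3 PNP and 3 control arrays. Nothing is read from this count.

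Of 17 STRIPAK genes, the complex of Mob4, 15 could be tested and 0 passed, 7 above and 8 below 0, with a median of -0.0020. Stk25, a kinase of the complex, had the highest difference, 0.27 (SE 0.14), against 0.08 with its outlier spots kept, and its second probe had 0.05. Strip2, a scaffold, had -0.21 (SE 0.16). It was dim, well above background on 2 PNP arrays and 3 control arrays, and with normexp its difference was 0.05 (SE 0.11). Ppp2ca, a catalytic subunit of the PP2A phosphatase, had 0.11 (SE 0.10). Over the 4 lists, 51 genes were tested and 2 had an unadjusted p below 0.05, Stk38 and Fjx1, against 6.52% of all genes. Fjx1 entered the test through its control arrays alone, so the filter favoured its direction and its p is not read as a result. Among genes above background on all 6 arrays, 49 pathway genes were tested and 1 had an unadjusted p below 0.05, against 834 of all 12721 genes.

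**Figure D4:**
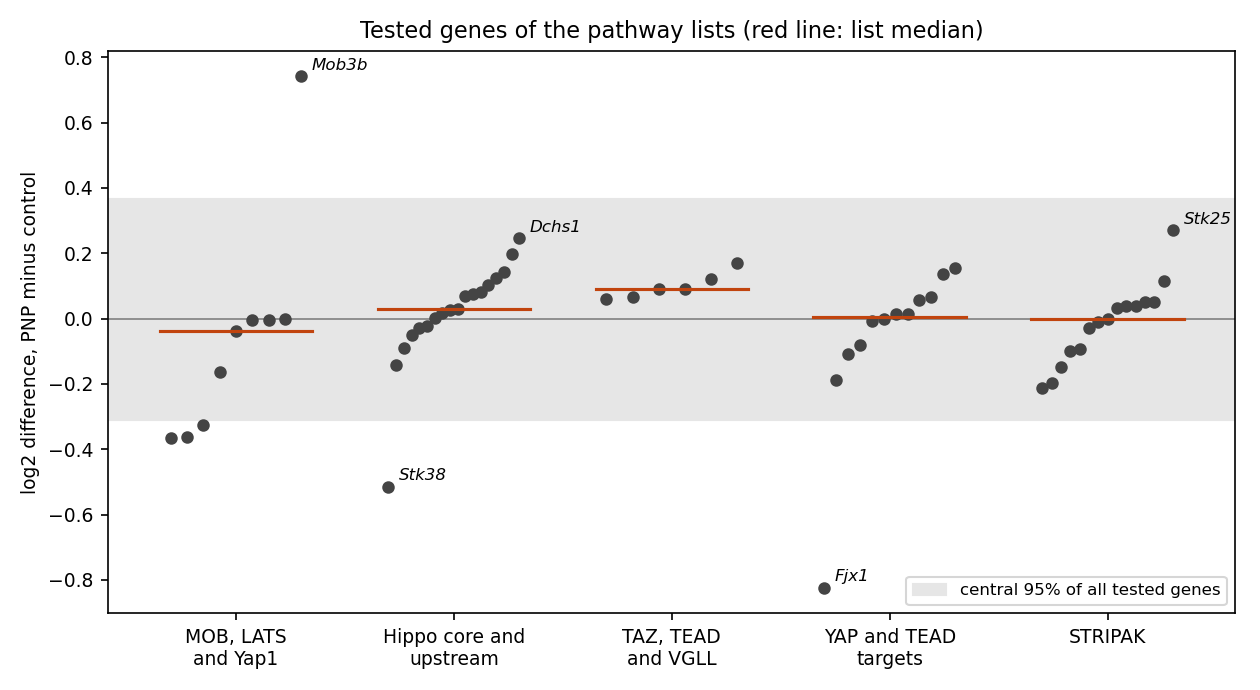
Log2 difference, PNP minus control (vertical axis), of each tested gene of the set and of the 4 pathway lists, with list medians as lines and the central 95% of all tested genes, from -0.31 to 0.37, as a grey band. Mob3b lies above the band, Mob1a, Mob1b, Mob3c, Stk38 and Fjx1 below it, and the list medians lie between -0.04 and 0.09.

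The value of Mob3b was recomputed under 17 other ways of processing, which reuse the arrays by which it was picked. Its groups did not overlap, so leaving out an array could not change its sign. The value lay between 0.51 and 0.83. The lowest, 0.51, came from another background correction, normexp. Mob1b and Mob3c stayed below 0 under each of the 17, between -0.52 and -0.26 and between -0.52 and -0.21. Mob1a ranged from -1.01 to 0.04 over the 16 settings in which it could be fitted.

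**Figure D5:**
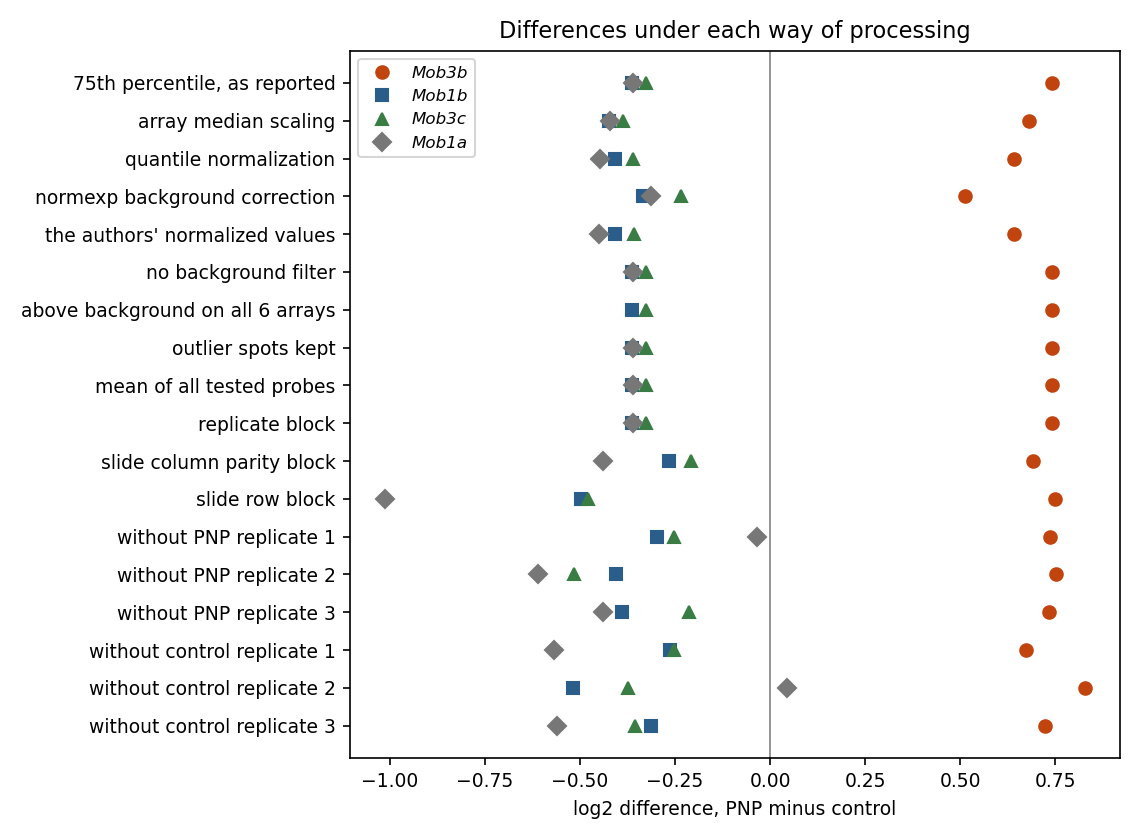
Log2 difference, PNP minus control (horizontal axis), of Mob3b, Mob1b, Mob3c and Mob1a under the reported processing and 17 others (rows), with 1 symbol per gene. Mob3b lies between 0.51 and 0.83, its sign being fixed in advance where an array is left out, and Mob1a moves from -1.01 to 0.04.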

How the data were processed

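Total RNA of 6 samples was grouped by the dose in the labels. The deposited scanner files hold intensity values from Agilent Feature Extraction 11.5.1.1 per the file headers (10.7 per the submitters' processing notes), with background and spatial trend subtracted and low values replaced by a surrogate, whose effect on dim probes was not tested. The labels name Cy3 while the files hold red-channel columns, so the dye is unsettled here. The authors' deposited normalized matrix holds log2 values, found by setting each column against its array (r from 0.9996 to 1, median 8.27 in each column). Its values are uncentred and run in the direction of the scanner signal, and the steps behind them are not given in the sources used here.

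Outlier spots were left out and replicate spots averaged. A probe was tested if well above background on all 3 arrays of a group with at least 2 values per group. Probes were named by accession through a RefSeq list of assembly GRCm38.p6 (33767 of 56605 probes, 23462 symbols), since the scanner files give no gene symbols, and each gene was read by its brightest tested probe. A value was missing on 1 or 2 arrays in 2028 genes, and 6114 probes were left out for outlier spots. limma 3.58.1 (lmFit and eBayes, R 4.3.3, with version 1.17.8 of data.table) gave PNP minus control, two-sided, without covariates. P-values were adjusted by Benjamini-Hochberg over 13138 genes, and the threshold was 0.05. A gene's 95% interval was 0.28 either way in the median (1.21-fold), and the number of arrays limits this precision. For a gene above background on 0 arrays of a group, that group's values were raised to at least the lowest signal well above background before the fold was taken. The procedure was tested on simulated data.

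The members, the lists and the rule on which genes to name were chosen with earlier results of these data known. Named were all 10 members, the 3 genes of smallest unadjusted p per pathway list, central pathway genes (Stk3, Stk4, Sav1, Nf2, Wwtr1, Tead1 to Tead4, Stk38, Stk38l, Ccn1, Ccn2 and Ankrd1, of which Stk3, Sav1, Ccn2 and Ankrd1 had no test and are named outside the rule) and the 5 genes of highest Pearson r with Mob3b, clones and predicted genes left out. Deviations of same-numbered samples from their group means had r of -0.31, -0.22 and -0.03. Each such pair lay in an even and an odd slide column, so these values cannot tell whether the replicate numbers pair the samples. Alternatives covered the scaling (array median, quantile), normexp background correction with an offset of 50, the authors' matrix, the background filter, outlier spots, all probes of a gene, blocks for replicate number, slide column and slide row, and each sample left out. The files hold median and no mean spot signals, so normexp used median signals, a departure from the plan. Figures were drawn with matplotlib 3.10.9 in Python 3.11.15.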

Additional observations from a re-analysis of the deposited data

How the results depend on the processing

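No pathway gene passed the threshold under any of the 17 alternatives run. Over all genes, 0 passed as reported and under 14 of them. With slide column parity as a block 1 gene passed, Gm27166, and leaving out 1 array gave 0 to 1 gene, Gm27166 without control replicate 2 and 1600027J07Rik without PNP replicate 2, both named after their values were seen. At an unadjusted p below 0.05 the count was 856 as reported, 1303 with no background filter, 1745 without PNP replicate 2 and 344 without control replicate 3. With the replicate number as a block, 0 genes and 0 pathway genes passed and the Mob3b difference was 0.74 (SE 0.12), so this block changed no call. The Mob3b difference was 0.51 with normexp background correction, and 0.67 to 0.83 with 1 array left out. The cause was not tested. Members other than Mob3b with a difference below 0 numbered 8 as reported, 5 with normexp, 5 with slide row as a block, 5 without PNP replicate 3 and 4 without control replicate 2. These member counts were added after the data were seen. With slide row as a block the differences of Mob1a, Mob2 and Lats1 were -1.01, 0.16 and -0.20. No scaling moved the median of all genes by over 0.1. Dim probes such as those of Mob3b, Mob1a, Fjx1 and Strip2 have signals near the background limit.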
